A study of Rattus norvegicus with 23 samples.

Results

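The liver makes most of the plasma proteins of the complement and clotting cascades, and 45 of their genes were followed here in rat liver: 24 of the complement system and 21 of coagulation and fibrinolysis. A gene was taken as measured when a probe set of the array named it and no other gene, and where several did, the one that was brightest on average across the 23 arrays stood for it. By that rule 39 of the 45 genes were measured (22 complement and 17 coagulation genes), among 14217 genes measured in all. C2 and Cfb, which share 4 probe sets, and Kng1, which shares a probe set with Kng2 and Kng2l1, had no probe set of their own, and F7, F11 and F13b had none.

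The samples were left lateral lobes from the livers of male Sprague Dawley rats, 6 to 8 weeks of age, that were dosed by oral gavage for 5 days and necropsied 24 h after the last dose following an overnight fast. Alpha-naphthylisothiocyanate (ANIT, 100 mg/kg, 3 rats), a bile duct toxicant, was compared with corn oil at 5 ml/kg (3 rats), and methylenedianiline (MDA, 100 mg/kg, 3 rats), another bile duct toxicant, with 35% ethanol at 2 ml/kg (3 rats). Acetaminophen (APAP, 1000 mg/kg, 3 rats), an analgesic, was compared with corn oil at 2 ml/kg (3 rats), and diclofenac (DCLF, 10 mg/kg, 3 rats), an anti-inflammatory drug, with water at 10 ml/kg (2 rats), the last 4 groups belonging to a single in-life study. Values are log2 signals from robust multichip averaging (RMA), so a difference of 1 is a doubling of signal, and levels are compared between animals for the same probe sets. A gene was called changed when limma gave an adjusted p under 0.05 over all probe sets and the fold change was over 1.5, and "rose" and "fell" are used of such genes only.

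Complement is activated through the classical pathway (C1q with the proteases C1r and C1s), the lectin pathway (mannose-binding lectins with Masp1 and Masp2) and the alternative pathway (factors B and D), which converge on C3 and end in the pore of C5 to C9. Coagulation runs from the contact system and the vitamin K dependent proteases to thrombin and fibrin, is held back by antithrombin and the protein C system, and is undone by plasmin. Hepatocytes secrete nearly all of these proteins, several as acute-phase proteins induced by interleukin 6 through STAT3 and C/EBP factors and held on by liver factors such as HNF1, whereas C1q comes mainly from macrophages and factor D (adipsin) is best known from adipose tissue and macrophages.

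In 3 arrays of the ANIT study the brightest signals lay lower than elsewhere, and this touches several of these genes. In corn oil 5 ml/kg replicate 2 and ANIT replicates 1 and 2 the level that 1 probe set in 1000 exceeded was 14.28 to 14.34 and 0 probe sets exceeded 15, whereas in the other 20 arrays that level was 14.92 to 15.45 and 29 to 38 probe sets exceeded 15. Of the 39 genes, 8 had a mean above 14.28 in those 20 arrays (C3, Apoh, Fgg, Fgb, Vtn, Serpinc1, Fga and Plg). For 6 of the 8, each of the 3 arrays read below all 20 others. Genes under that level could be touched too: Serping1 read 13.57 to 13.68 on the 3 arrays and 13.69 to 14.06 on the 20 others. C3, the protein on which all 3 pathways converge, read 15.78, 14.45 and 15.79 in the corn oil animals and 14.49, 14.86 and 15.78 in the ANIT animals. The low C3 values therefore fell on both sides of the comparison and followed the array, and C3 read 15.76 to 15.85 in every one of the 20 other arrays. Values without the 3 arrays rest on 2 corn oil rats and 1 ANIT rat, with that rat assumed to vary like the others. The 14 measured hepatocyte markers averaged 13.97 to 14.76 in these corn oil animals and 13.88 to 14.69 in the ANIT animals, and 14.56 to 14.80 in all other groups.

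**Figure D1:**
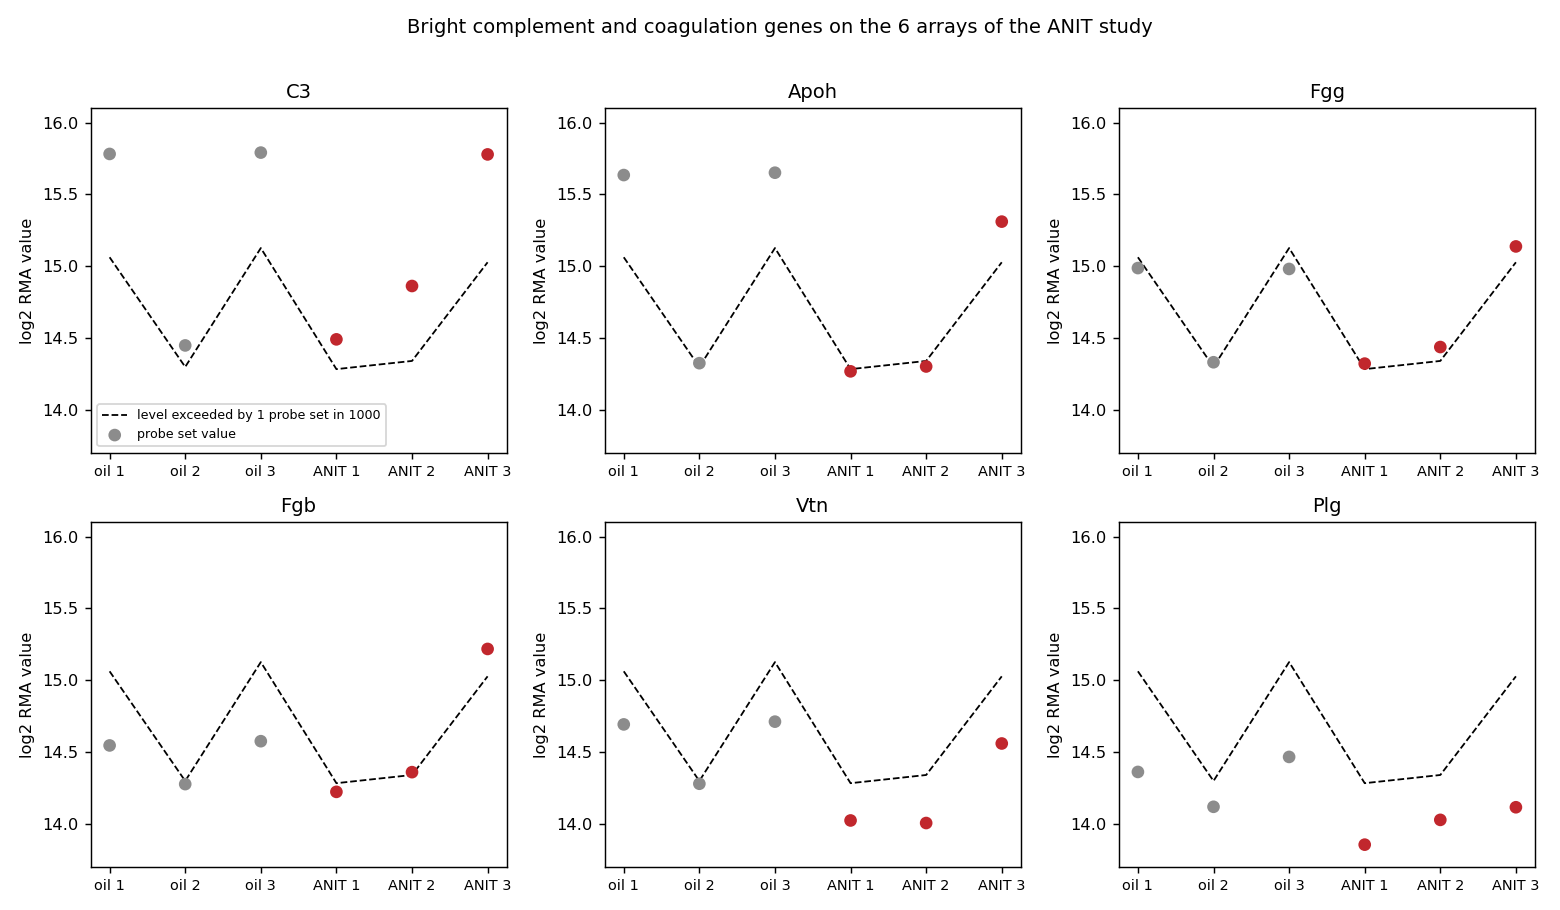
RMA log2 values (vertical axis) of 6 bright complement and coagulation genes in the 3 corn oil (grey) and 3 ANIT (red) animals along the horizontal axis, with the level that 1 probe set in 1000 exceeded on each array as a broken line. The points of C3, Apoh and Fgg dropped with that level in corn oil replicate 2 and ANIT replicates 1 and 2, where it was 14.28 to 14.34.

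Promoter sequence is shown for 7 genes named in the comparisons. Fgb, a fibrinogen chain, C5, Apoh and Pros1 are from the hepatocyte side, and Fgb and C5 were not called in the main fits. Kng1 is 1 of 3 genes behind a shared probe set that rose, and C1qa and Cfd rose with MDA. Each sequence is the 250 bases before the transcription start in RefSeq on rat build GRCr8, written 5′ to 3′ on the strand of the gene. Capitals mark matches to the STAT motif TTCNNNGAA, the C/EBP motif TTNNGNAAT and the HNF1 motif GTTAAT on either strand.
Fgb (chr2:170700876-170701125, minus strand): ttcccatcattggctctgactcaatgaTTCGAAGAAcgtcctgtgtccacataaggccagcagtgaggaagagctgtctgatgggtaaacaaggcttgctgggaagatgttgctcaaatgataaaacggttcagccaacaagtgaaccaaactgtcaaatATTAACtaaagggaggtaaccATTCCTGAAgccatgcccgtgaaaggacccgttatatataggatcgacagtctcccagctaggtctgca
C5 (chr3:38759469-38759718, minus strand): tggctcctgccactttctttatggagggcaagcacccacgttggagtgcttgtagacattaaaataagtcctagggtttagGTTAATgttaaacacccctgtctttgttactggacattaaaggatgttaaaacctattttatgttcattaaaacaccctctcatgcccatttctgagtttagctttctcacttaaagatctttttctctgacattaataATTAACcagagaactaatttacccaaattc
Kng1 (chr11:91340149-91340398, minus strand): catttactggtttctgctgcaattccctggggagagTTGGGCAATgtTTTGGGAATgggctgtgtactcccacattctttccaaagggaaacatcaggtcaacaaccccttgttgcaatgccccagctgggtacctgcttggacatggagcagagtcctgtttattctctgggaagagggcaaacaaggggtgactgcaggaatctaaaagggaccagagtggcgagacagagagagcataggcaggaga
Apoh (chr10:93841742-93841991, plus strand): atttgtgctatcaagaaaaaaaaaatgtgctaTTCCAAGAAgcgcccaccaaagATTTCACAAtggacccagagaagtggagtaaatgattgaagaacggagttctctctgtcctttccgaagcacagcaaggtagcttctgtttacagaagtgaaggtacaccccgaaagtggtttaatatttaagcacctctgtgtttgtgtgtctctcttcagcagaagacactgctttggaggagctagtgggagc
Pros1 (chr11:13677049-13677298, plus strand): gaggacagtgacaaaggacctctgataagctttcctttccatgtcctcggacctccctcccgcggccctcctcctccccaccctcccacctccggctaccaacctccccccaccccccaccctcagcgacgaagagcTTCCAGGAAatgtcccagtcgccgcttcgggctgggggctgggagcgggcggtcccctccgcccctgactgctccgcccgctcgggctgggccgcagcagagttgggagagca
C1qa (chr5:154419934-154420183, minus strand): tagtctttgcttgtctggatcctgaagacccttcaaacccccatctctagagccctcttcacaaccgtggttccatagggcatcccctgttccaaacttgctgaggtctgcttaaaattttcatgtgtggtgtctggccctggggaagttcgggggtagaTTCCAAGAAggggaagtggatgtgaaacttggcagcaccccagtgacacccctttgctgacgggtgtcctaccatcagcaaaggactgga
Cfd (chr7:10465497-10465746, minus strand): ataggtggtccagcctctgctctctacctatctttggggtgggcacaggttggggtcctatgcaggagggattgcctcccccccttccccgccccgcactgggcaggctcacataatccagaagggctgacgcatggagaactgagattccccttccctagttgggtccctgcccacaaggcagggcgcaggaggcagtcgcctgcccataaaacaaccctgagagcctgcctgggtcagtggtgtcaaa

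RefSeq held a promoter window (250 bases before to 50 after the start) for 35 of the 45 genes, 31 of them measured, among 33469 windows in all. The STAT motif lay in 9 of the 31 windows (29.03%; Fga, Fgb, C8a, C1qa, Vtn, Apoh, Pros1, C4bpb and F9) against 8.87% of all windows. The HNF1 motif lay in 9 (29.03%; Plg, Fga, Fgb, C5, F2, C8a, C4bpa, C4bpb and Proc) against 7.45%, and the C/EBP motif in 7 (22.58%; C6, Fgb, C1r, C3, Apoh, Klkb1 and F10) against 12.3%. An NF-kB motif of 10 letters lay in 14 of the 31 (45.16% against 47.27%), the NRF2 motif TGACNNNGC in 4 (12.9% against 12.06%) and the HNF4 motif CAAAGTCCA in 0 (against 0.39%). Matches were counted on both strands and may overlap one another. They describe letters in these windows, and binding was not measured. Among the genes with no entry were C9, C8g, C1qc and C1s, and also Masp2, Serping1, Serpind1 and Cpb2.

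With MDA 8 of the 39 genes changed and with ANIT 1, where 9.13% and 7.22% of all genes were called. With MDA, 5 genes rose (C1qa, C1qb, C1qc, Cfd and C9) and 3 fell (C8g, Pros1 and Apoh), that is 12.8% higher and 7.69% lower, where 4.90% and 4.23% of all genes were called. With ANIT, 0 genes rose and 1 fell (C8g, 2.56%), where 3.84% and 3.38% of all genes were called. At an unadjusted p under 0.05 there were 18 of the 39 with ANIT (28.0% of all genes) and 21 with MDA (31.8% of all genes), in either direction. A further 9 genes with ANIT (5.54% of all genes) and 8 with MDA (7.71% of all genes) had an adjusted p under 0.05 at a fold of 1.5 or less. The median log2 change of the 39 genes was -0.11 with ANIT and -0.06 with MDA, against -0.02 and 0.00 over all genes. Without regard to size, the ANIT and vehicle animals did not overlap for 20 of the 39 genes, 7 higher (17.9%, against 14.1% of all genes) and 13 lower (33.3%, against 18.8%). With MDA, 12 were higher without overlap (30.8%, against 17.1%) and 14 lower (35.9%, against 18.4%). With MDA, 11 of 22 complement genes were higher and 4 lower without overlap, and of 17 coagulation genes 1 was higher and 10 lower. With ANIT, 6 complement genes were higher and 6 lower, and 1 coagulation gene was higher and 7 lower. The arrays of lower top range, corn oil replicate 2 and ANIT replicates 1 and 2, were unevenly spread over these groups. Their part in the lower ANIT values of these mostly bright genes was not tested.

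**Figure D2:**
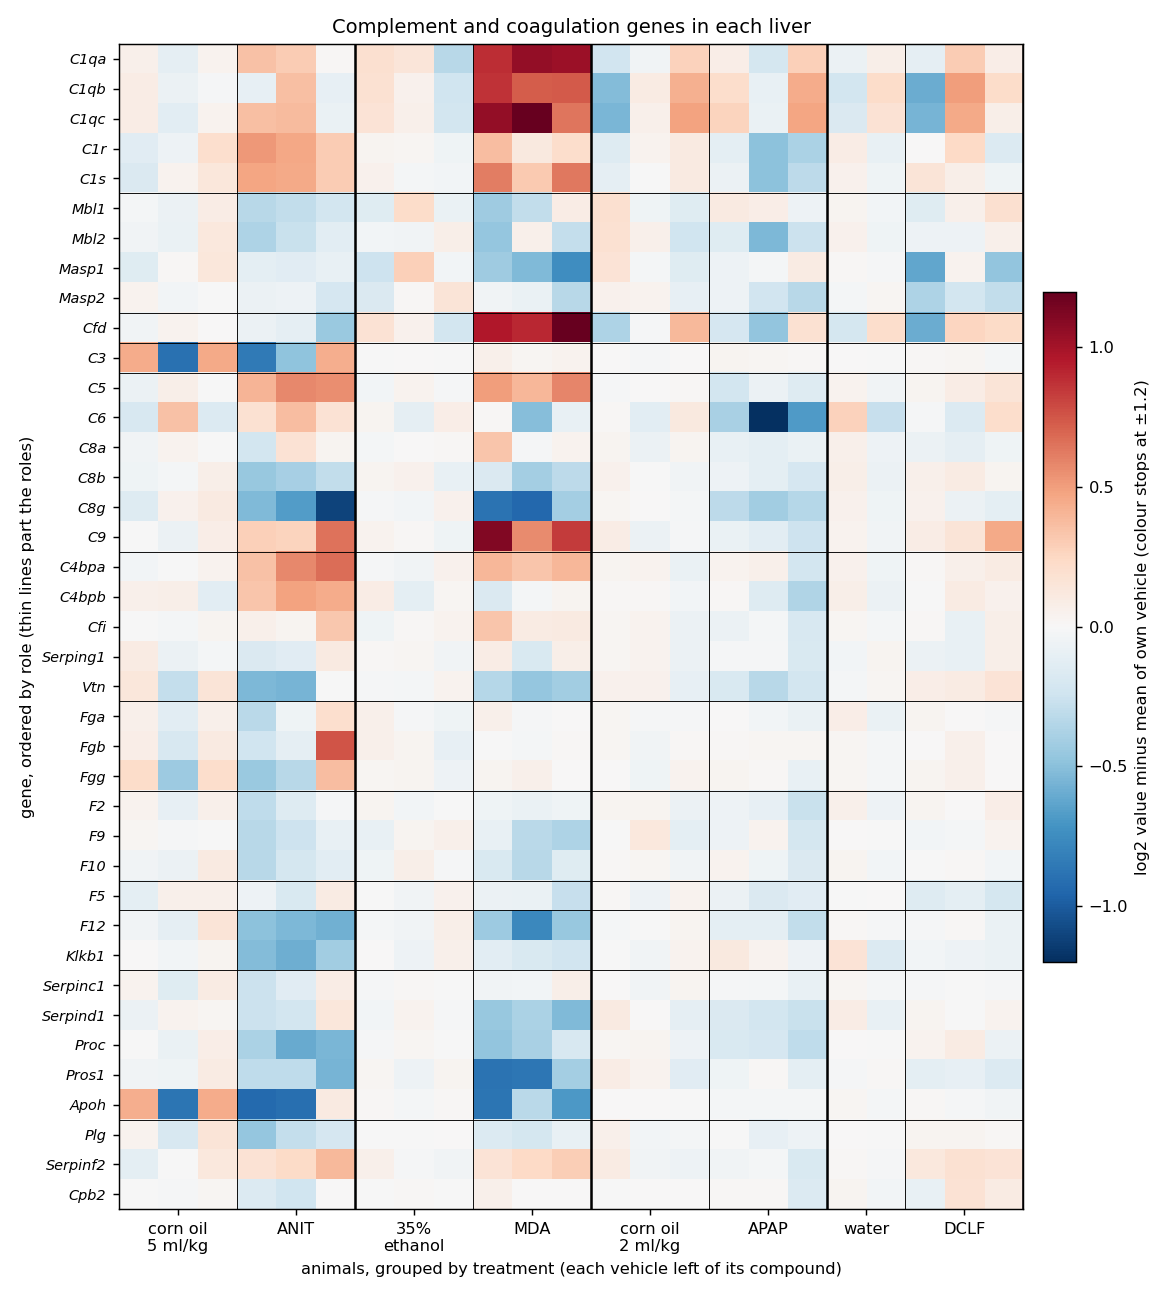
Difference of each animal's log2 value from the mean of its own vehicle group (colour, red higher and blue lower) for the 39 measured genes (rows, ordered by role) in 23 livers (columns, each vehicle left of its compound). C1qa, C1qb, C1qc, Cfd and C9 are red and C8g, Pros1 and Apoh blue in all 3 MDA animals, while the APAP and DCLF columns are mostly pale.

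In the classical pathway 3 of 5 measured genes rose with MDA, all of them chains of C1q. C1qa, C1qb and C1qc encode the 3 chains of C1q, the protein that recognises antibody and dying cells. C1qa read 11.80, 11.75 and 11.27 in the ethanol animals and 12.49, 12.66 and 12.63 in the MDA animals. All MDA animals lay above all ethanol animals, and the change was 0.99 (SE 0.14, limma adjusted p = 0.00396). C1qb read 11.49, 11.35 and 11.07 with ethanol and 12.17, 12.03 and 12.04 with MDA, a change of 0.78 (SE 0.12, limma adjusted p = 0.00471). C1qc read 11.54, 11.44 and 11.16 with ethanol and 12.44, 12.76 and 12.02 with MDA, a change of 1.02 (SE 0.18, limma adjusted p = 0.00935). For these chains too the groups did not overlap, and ethanol replicate 3 gave the lowest value of each. With the methods' t-test the C1qc call was lost before and after adjustment. The calls of C1qa and C1qb were lost after adjustment (t-test adjusted p = 0.0852 and 0.0791). The same 3 chains were 0.06 to 0.22 higher with ANIT, with overlapping groups and limma adjusted p from 0.277 to 0.868.

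The rise of C1q with MDA came with a rise of macrophage transcripts. Of 17 measured monocyte and macrophage markers, 12 rose and 0 fell with MDA, where 4.90% and 4.23% of all genes were called. Among those that rose were Gpnmb (2.04, SE 0.18), Aif1 (1.69, SE 0.21), Ccl2 (1.45, SE 0.09), Lgals3 (1.33, SE 0.08) and Fcgr1a (1.17, SE 0.10). The mean log2 value of the 17 markers was 11.12 to 11.32 in the MDA animals and 10.22 to 10.36 in the ethanol animals. Clec4f and Cd5l, markers of resident Kupffer cells, were 0.26 (SE 0.15) and 0.52 (SE 0.15) higher without being called. With ANIT, 3 of the 17 rose (Lgals3, Gpnmb and Cd163) and 1 fell (Cd14), where 3.84% and 3.38% of all genes were called. The mean value of the 17 was 10.56 to 10.92 with ANIT against 10.47 to 10.65 in corn oil. In bulk tissue, more cells of a type and more RNA per cell cannot be told apart, and the part of macrophage number in the C1q values was not tested. C1q and the markers also varied together among the rats given corn oil at 2 ml/kg. In corn oil 2 ml/kg replicates 1, 2 and 3 the mean of the C1q chains was 10.88, 11.35 and 11.71 and that of the macrophage markers 9.84, 10.18 and 10.46. DCLF replicate 1 was likewise low for both (10.89 and 9.93), with DCLF replicates 2 and 3 at 11.74 and 11.44 for C1q. In corn oil 5 ml/kg replicates 2 and 3, C1q was 11.64 and 11.76 and the markers 10.49 and 10.47, in opposite order. The 10 measured endothelial markers averaged 9.75 to 10.32 in the corn oil 2 ml/kg rats, so a spread there was not particular to macrophage markers.

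**Figure D3:**
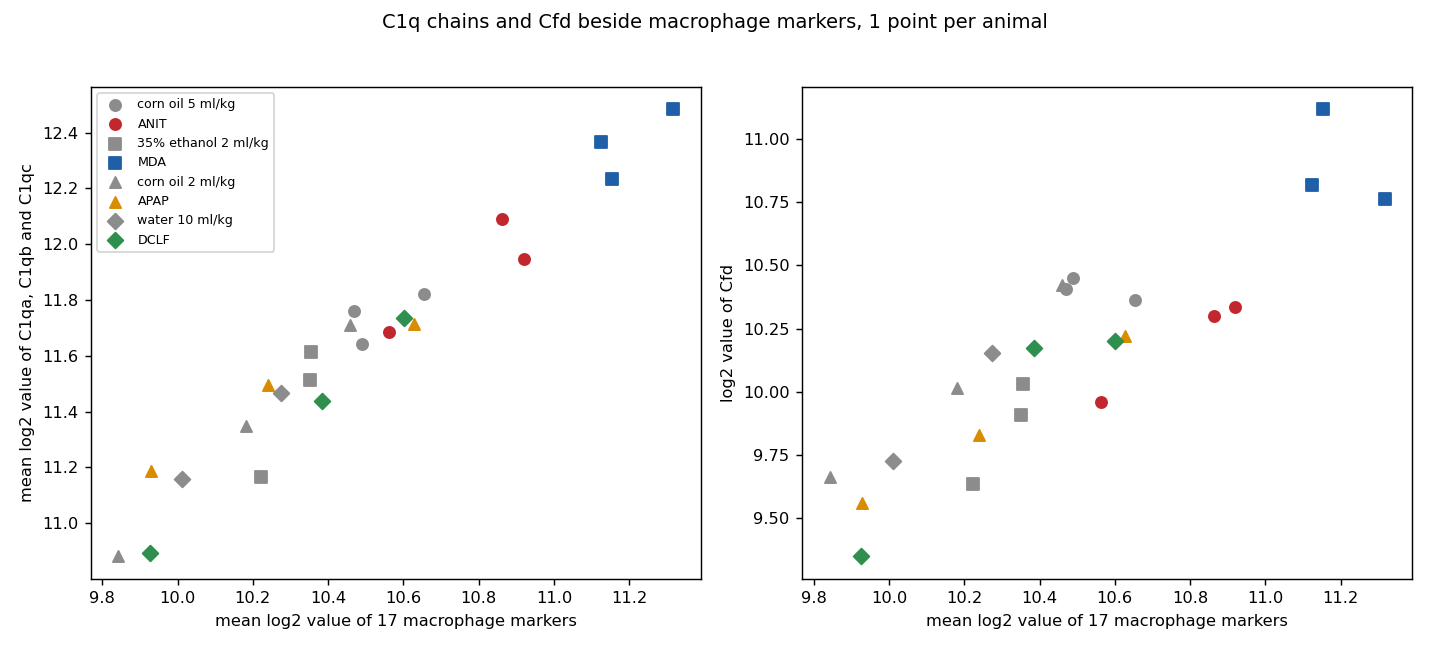
Mean log2 value of the 3 C1q chains (left) and log2 value of Cfd (right) on the vertical axes against the mean log2 value of 17 macrophage markers, 1 point per animal, vehicles in grey and compounds in colour. The 3 MDA animals lie at the upper right in both panels (marker mean 11.12 to 11.32), and the 3 ANIT animals have Cfd values of 9.96 to 10.33, below the 10.36 to 10.45 of their corn oil animals.

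C1r and C1s, the proteases of the C1 complex, come largely from hepatocytes. C1s read 13.06, 13.27 and 13.37 in corn oil and 13.71, 13.69 and 13.54 with ANIT, and 13.59, 13.51 and 13.51 in ethanol against 14.15, 13.85 and 14.17 with MDA. In neither study did the groups overlap, and the differences of 0.41 (SE 0.10, limma adjusted p = 0.0451) and 0.52 (SE 0.11, limma adjusted p = 0.016) were under the fold threshold. C1r was 0.43 higher with ANIT (SE 0.11, limma adjusted p = 0.0501) and 0.23 higher with MDA (SE 0.09, limma adjusted p = 0.159), again without overlap.

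Cfd encodes factor D, the serine protease that cleaves factor B in the alternative pathway, and it was the only one of the 39 genes whose response differed between ANIT and MDA by the test of the difference. Cfd read 10.03, 9.91 and 9.63 in the ethanol animals and 10.82, 10.76 and 11.12 in the MDA animals. All MDA values were above all ethanol values, and the change was 1.04 (SE 0.14, limma adjusted p = 0.00244). In the ANIT study it read 10.36, 10.45 and 10.41 in corn oil and 10.33, 10.30 and 9.96 with ANIT, so the ANIT animals lay below all corn oil animals, by 0.21 (SE 0.11, limma adjusted p = 0.322). The ANIT effect was 1.25 below the MDA effect (log2 difference -1.25, SE 0.18, limma adjusted p = 0.00805), where 1.67% of all genes were called in that difference, 0.710% higher and 0.964% lower. The MDA call of Cfd was lost with the methods' t-test after adjustment (t-test adjusted p = 0.0703). Of 6 measured adipocyte markers 0 were called with either compound. With MDA, Adipoq, which defines adipocytes, differed by -0.10 (SE 0.09) and Plin1 by 0.10 (SE 0.09), and the mean log2 value of the 6 was 9.43 to 9.64 in ethanol and 9.46 to 9.55 with MDA. Macrophage markers rose with MDA as given above, and their part in the Cfd values was not tested.

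For the C1q chains the corresponding differences between the ANIT and MDA effects were -0.76, -0.72 and -0.81 for C1qa, C1qb and C1qc, with limma adjusted p of 0.0882, 0.0976 and 0.176. None passed. The change of Cfd with MDA was thus shown to differ from that with ANIT, and those of the C1q chains were not.

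The probe sets shared by Cfb and C2, which encode factor B and its classical pathway counterpart, were called nowhere. The largest difference with MDA was 0.38 (SE 0.09, limma adjusted p = 0.0252, values 11.53, 11.36 and 11.38 in ethanol and 11.79, 11.76 and 11.84 with MDA), under the fold threshold. The other 3 shared probe sets differed by -0.01 to 0.29 with MDA and by 0.00 to 0.13 with ANIT. Signal of the 2 genes cannot be told apart on them.

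Lectin pathway genes were lower than vehicle in both studies, without a call. Mbl1 and Mbl2 encode the mannose-binding lectins, and Masp1 and Masp2 the proteases they carry. With ANIT the 4 genes differed by -0.28 to -0.11, and 3 of them (Mbl1, Mbl2 and Masp2) did not overlap with corn oil. Dimmer probe sets of Masp1 differed by -0.47 and -0.42 with ANIT (limma adjusted p = 0.124 and 0.0608), against -0.12 for the brightest. Those of Masp2 differed by -0.22 and -0.29 (limma adjusted p = 0.143 and 0.0541), against -0.11. With MDA the 4 genes differed by -0.57 to -0.15. The largest of these was Masp1, which read 11.35, 11.89 and 11.57 in ethanol and 11.18, 11.07 and 10.86 with MDA (difference -0.57, SE 0.15, limma adjusted p = 0.0411). Its fold was under 1.5, and the other 2 probe sets of Masp1 differed by -0.35 and -0.14 with limma adjusted p of 0.108 and 0.495, so the probe sets differed in size.

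Terminal components split into those that were higher and those that were lower in the same livers. C9 forms the wall of the membrane attack pore and C8g encodes the lipocalin-like gamma chain of C8. C9 read 14.12, 14.09 and 14.02 in the ethanol animals and 15.18, 14.64 and 14.91 in the MDA animals. Every MDA animal exceeded every ethanol animal, and the gene rose by 0.84 (SE 0.13, limma adjusted p = 0.00559). With ANIT it read 14.23, 14.22 and 14.60 against 13.94, 13.88 and 14.02 in corn oil, also without overlap, a difference of 0.40 (SE 0.12, limma adjusted p = 0.0743). The MDA call of C9 was lost with the methods' t-test after adjustment (t-test adjusted p = 0.0906).

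C8g went the other way. It read 13.26, 13.46 and 13.52 in corn oil and 12.88, 12.74 and 12.30 with ANIT, and 13.42, 13.39 and 13.48 in ethanol against 12.55, 12.49 and 13.02 with MDA. All 6 treated animals lay below their vehicles. C8g fell by 0.77 with ANIT (SE 0.15, limma adjusted p = 0.0197) and by 0.75 with MDA (SE 0.14, limma adjusted p = 0.0113). The MDA call was lost under quantile normalization (-0.56, under the fold threshold) and with the methods' t-test. The ANIT call was lost with that test too, and without corn oil replicate 2 (-0.75, limma adjusted p = 0.0824) or corn oil replicate 3 (-0.72, limma adjusted p = 0.0878). C8b, the beta chain, differed by -0.38 with ANIT (SE 0.08, limma adjusted p = 0.0241) and by -0.30 with MDA (SE 0.10, limma adjusted p = 0.0798), without overlap in either study. C8a, the alpha chain to which the gamma chain is bound, differed by 0.00 and 0.12 and overlapped in both. The 3 chains of C8 thus had different values in the same animals.

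C5, the source of the C5a peptide and the first piece of the pore, read 12.57, 12.71 and 12.63 in corn oil and 13.05, 13.21 and 13.19 with ANIT. In the MDA study it read 12.79, 12.87 and 12.81 in ethanol and 13.33, 13.22 and 13.41 with MDA. Both groups of treated animals lay above their vehicles, and the differences of 0.52 (SE 0.08, limma adjusted p = 0.00874) and 0.50 (SE 0.09, limma adjusted p = 0.00825) had adjusted p-values under 0.05 but folds of 1.43 and 1.41, under the threshold. C6 differed by 0.25 with ANIT and by -0.19 with MDA, overlapping in both.

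**Figure D4:**
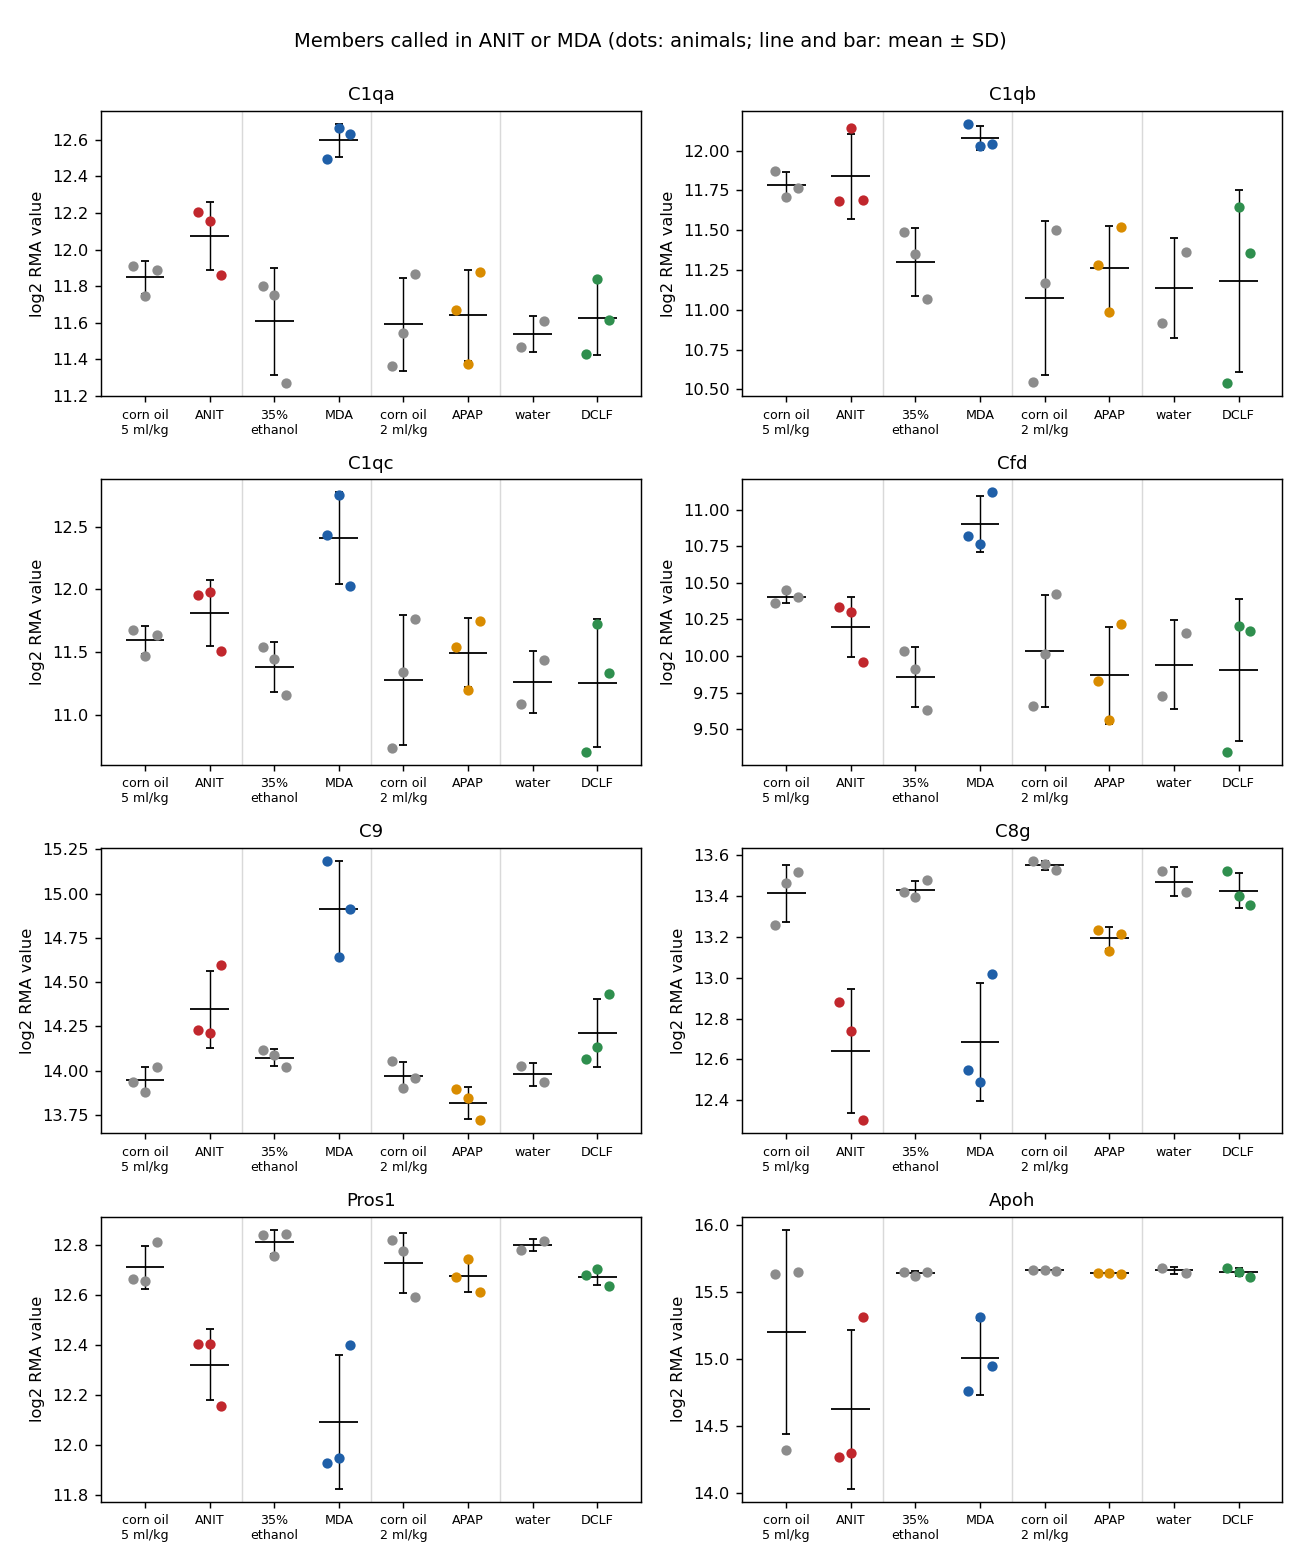
RMA log2 values (vertical axes) of the 8 genes called with ANIT or MDA in all 8 groups (horizontal axes, each vehicle left of its compound), with dots for animals and the line and bar for mean ± SD. In the MDA group C1qa, C1qb, C1qc, Cfd and C9 lie above and C8g, Pros1 and Apoh below all ethanol animals, and C8g also falls with ANIT.

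Among complement regulators, C4bpa and C4bpb encode the alpha and beta chains of the C4b-binding protein, whose beta chain carries protein S. C4bpa read 13.57, 13.60 and 13.65 in corn oil and 13.95, 14.19 and 14.27 with ANIT (difference 0.53, SE 0.10, limma adjusted p = 0.0146), and 13.87, 13.85 and 13.94 in ethanol against 14.29, 14.22 and 14.29 with MDA (difference 0.38, SE 0.08, limma adjusted p = 0.0181). C4bpb was 0.42 higher with ANIT (SE 0.09, limma adjusted p = 0.0243) and differed by -0.06 with MDA (SE 0.10). The treated animals lay above vehicle for both chains with ANIT, and with MDA for the alpha chain alone. All of these folds were under 1.5, and the difference between the ANIT and MDA effects on C4bpb (0.48, SE 0.13) had a limma adjusted p of 0.111. Vtn, which encodes vitronectin, an inhibitor of pore assembly, read 14.71, 14.71 and 14.76 in ethanol and 14.38, 14.26 and 14.31 with MDA (difference -0.41, SE 0.08, limma adjusted p = 0.0139). With ANIT it differed by -0.37 (SE 0.18), and by -0.14 (SE 0.11) without the 3 arrays of lower top range. Cfi and Serping1, which encode factor I and C1 inhibitor, differed by -0.07 to 0.18 in both studies. Without the 3 arrays of lower top range they differed by 0.31 and 0.07 with ANIT.

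The brightest probe sets of the 3 fibrinogen chains, Fga, Fgb and Fgg, differed by 0.02, 0.00 and 0.03 with MDA (SE 0.08 each). Dimmer probe sets read otherwise: that of Fga differed by -0.31 (SE 0.09, limma adjusted p = 0.0541), and those of Fgb by -0.29 (SE 0.14) and 0.23 (SE 0.11), with limma adjusted p of 0.241 and 0.263. Fgg read 15.04, 15.05 and 14.95 in ethanol and 15.05, 15.08 and 15.02 with MDA, close to the highest values on these arrays. With ANIT the values followed the arrays. Fgb read 14.55, 14.28 and 14.58 in corn oil and 14.22, 14.36 and 15.22 with ANIT (difference 0.13, SE 0.24, limma adjusted p = 0.817). On the arrays of full range alone, the single ANIT value of 15.22 stood above both corn oil values, and Fgb was called higher (0.66, SE 0.11, limma adjusted p = 0.0315). In that same fit, which counts on 1 ANIT rat, C4bpa (0.66), C9 (0.62) and C5 (0.60) were also called higher and C8g (-1.08), F12 (-0.63) and Proc (-0.59) lower, 4 and 3 of the 39 genes, where 3.86% and 5.97% of all genes were called. With all arrays C3 differed by -0.30 (SE 0.43), Fga by -0.06 (SE 0.13) and Fgg by -0.13 (SE 0.25), and without the 3 arrays by -0.01, 0.14 and 0.15. Without them Serpinc1 differed by 0.02, Apoh by -0.33 and Plg by -0.30, and limma adjusted p for these 6 genes ran from 0.131 to 0.976.

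The vitamin K dependent proteases were slightly lower than vehicle in both studies. F2 (prothrombin), F9 and F10 differed by -0.22 to -0.16 with ANIT and by -0.26 to -0.06 with MDA, with limma adjusted p from 0.151 to 0.72. F9 and F10 with ANIT, and F2 and F10 with MDA, did not overlap with vehicle. F5, the cofactor of factor Xa, differed by -0.05 with ANIT and by -0.14 with MDA. Without the 3 arrays of lower top range, F2, F9 and F10 differed by -0.07, -0.10 and -0.16 with ANIT. F5 then differed by 0.13, and each of these values rests on 1 ANIT rat.

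The contact system was lower for its proteases and higher for its kininogen signal. F12, which starts the intrinsic pathway, read 13.62, 13.54 and 13.81 in corn oil and 13.16, 13.12 and 13.08 with ANIT, and 13.69, 13.68 and 13.80 in ethanol against 13.28, 12.95 and 13.27 with MDA. The groups did not overlap in either study, and the differences of -0.54 (SE 0.09, limma adjusted p = 0.0102) and -0.56 (SE 0.11, limma adjusted p = 0.0143) stood just under the fold threshold, at 1.45 and 1.47. Klkb1, which encodes plasma prekallikrein, read 12.91, 12.88 and 12.94 in corn oil and 12.39, 12.33 and 12.50 with ANIT (difference -0.51, SE 0.08, limma adjusted p = 0.00727). With MDA it differed by -0.18 (SE 0.08, limma adjusted p = 0.222), and the difference between the effects was -0.33 (SE 0.10, limma adjusted p = 0.185).

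The probe set shared by Kng1, Kng2 and Kng2l1 read 13.61, 13.78 and 13.89 in corn oil and 14.38, 14.42 and 14.95 with ANIT, and 13.66, 13.98 and 13.75 in ethanol against 14.92, 14.96 and 14.99 with MDA. It rose by 0.82 with ANIT (SE 0.16, limma adjusted p = 0.0173) and by 1.16 with MDA (SE 0.10, limma adjusted p = 0.00053), with every treated animal above its vehicle. Beside kininogen proper, the rat has T-kininogens of this family, known as acute-phase proteins, and the probe set does not say which gene gave the signal.

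The anticoagulants were the coagulation group in which genes were called. Protein S (Pros1) is the cofactor of activated protein C (Proc), and beta-2 glycoprotein I (Apoh) binds phospholipid and is counted here with them. Pros1 read 12.84, 12.76 and 12.84 in ethanol and 11.93, 11.95 and 12.40 with MDA. MDA replicate 3 stood closest to vehicle but still below it, and the gene fell by 0.72 (SE 0.13, limma adjusted p = 0.0105). The call was lost under quantile normalization (-0.58, under the fold threshold) and with the methods' t-test. With ANIT it read 12.40, 12.40 and 12.16 against 12.66, 12.66 and 12.81 (difference -0.39, SE 0.10, limma adjusted p = 0.0445).

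Apoh read 15.65, 15.62 and 15.65 in ethanol and 14.76, 15.32 and 14.95 with MDA, and it fell by 0.63 (SE 0.14, limma adjusted p = 0.0198). The ethanol values were nearly alike and the MDA values spread widely beneath them. This call did not hold when any single ethanol animal was left out (limma adjusted p = 0.0513 to 0.0668) or MDA replicate 3 (0.0527), and without MDA replicate 1 the change was -0.51, under the fold threshold. With ANIT, Apoh read 14.27, 14.30 and 15.31 against 15.64, 14.32 and 15.65 (difference -0.58, SE 0.41, limma adjusted p = 0.481), values that followed the 3 arrays of lower top range. In ANIT replicate 3, an array of full range, it was below both corn oil animals of full range.

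Proc, protein C itself, read 13.36, 13.28 and 13.44 in corn oil and 12.98, 12.75 and 12.81 with ANIT (difference -0.51, SE 0.09, limma adjusted p = 0.0122), and it differed by -0.35 (SE 0.10) with MDA, without overlap in either. Serpind1, heparin cofactor II, read 13.57, 13.64 and 13.58 in ethanol and 13.15, 13.22 and 13.07 with MDA (difference -0.46, SE 0.08, limma adjusted p = 0.00989), and it differed by -0.11 with ANIT. Serpinc1, which encodes antithrombin, differed by 0.00 with MDA (SE 0.08) and by -0.10 with ANIT (SE 0.11). Without the 3 arrays of lower top range, Proc, Pros1 and Apoh were still below corn oil with ANIT (-0.59, -0.58 and -0.33), whereas Serpind1 and Serpinc1 turned to 0.16 and 0.02.

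Of the fibrinolysis genes measured, Plg, the precursor of plasmin, differed by -0.32 with ANIT (SE 0.11, limma adjusted p = 0.14) and by -0.15 with MDA (SE 0.08). Serpinf2, alpha-2 antiplasmin, was higher without overlap in both, by 0.26 (SE 0.10, limma adjusted p = 0.147) and 0.23 (SE 0.08, limma adjusted p = 0.114). Cpb2, a carboxypeptidase that slows fibrinolysis, differed by -0.13 and 0.02.

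**Figure D5:**
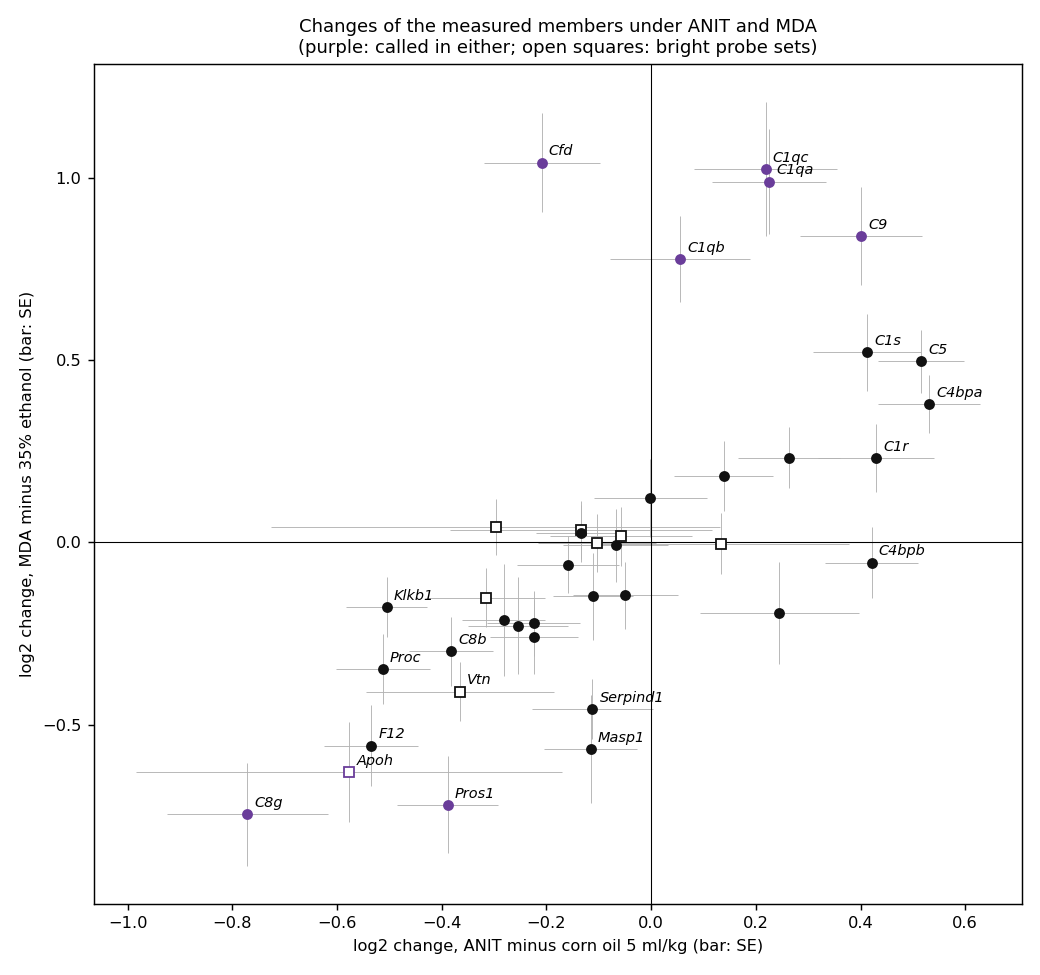
Log2 change with MDA (vertical axis) against log2 change with ANIT (horizontal axis) for the 39 measured genes, each compound against its own vehicle, with bars for the SE, purple for genes called with either compound and open squares for the 8 bright probe sets. Cfd stands at the upper left (1.04 and -0.21), C8g at the lower left (-0.75 and -0.77) and the C1q chains high on the vertical axis near 0 on the horizontal axis.

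With APAP and DCLF 0 of the 39 genes were called, where 0.324% (0.239% higher and 0.0844% lower) and 0.00% of all genes were called. At an unadjusted p under 0.05 there were 7 with APAP and 1 with DCLF, against 11.6% and 11.8% of all genes, and the methods' t-test called 0 in either comparison at its own threshold and after adjustment. The APAP values nevertheless leaned low: 12 of the 39 genes lay below corn oil without overlap (30.8%, against 7.09% of all genes) and 1 above (2.56%, against 10.4%). All 6 terminal components were among the 12. The 14 measured hepatocyte markers averaged 14.617 to 14.708 with APAP and 14.771 to 14.795 in corn oil 2 ml/kg, also without overlap. A lean to low values was therefore not particular to these complement and coagulation genes, and its source was not tested. C6, which joins C5b in the pore, read 11.66, 11.51 and 11.76 in corn oil and 11.26, 10.32 and 10.96 with APAP (difference -0.79, SE 0.21, limma adjusted p = 0.271). It was the largest difference among the 39 genes with APAP, and the 3 APAP animals were spread over a wider range than the corn oil animals. C8g read 13.57, 13.55 and 13.53 in corn oil and 13.23, 13.13 and 13.21 with APAP, a small and even difference of -0.36 (SE 0.07, limma adjusted p = 0.118). C1r and C1s differed by -0.33 and -0.29 and Proc by -0.23, with limma adjusted p of 0.391, 0.448 and 0.337.

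With DCLF 7 genes did not overlap with water in either direction (17.9%, against 30.9% of all genes), a share under the background. The largest differences were those of Masp1 (-0.35, SE 0.18, limma adjusted p = 0.469) and Masp2 (-0.29, SE 0.08, limma adjusted p = 0.302). C9 read 14.02 and 13.93 in water and 14.07, 14.14 and 14.43 with DCLF (difference 0.23, SE 0.12, limma adjusted p = 0.47). In the difference between the APAP and DCLF effects 0 of the 39 genes were called, where 0.134% of all genes were, and 7 had an unadjusted p under 0.05, against 13.6% of all genes.

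Around these genes, 59 of 74 other genes of the same systems were measured, among them receptors, membrane regulators, activators and the cytokine pathway that drives the acute-phase response. With MDA 18 rose and 1 fell, with ANIT 9 rose and 0 fell, with APAP 1 rose and with DCLF 0 were called. Of all genes, 4.90% were called higher and 4.23% lower with MDA, and 3.84% and 3.38% with ANIT. With APAP 0.239% of all genes were called higher, and with DCLF 0.00% were called. The plasminogen activators rose with both bile duct toxicants. Plat (tissue plasminogen activator) read 8.36, 8.85 and 8.86 in ethanol and 9.74, 10.71 and 10.50 with MDA, a rise of 1.63 (SE 0.25, limma adjusted p = 0.00461), and it rose by 1.93 with ANIT (SE 0.23, limma adjusted p = 0.00253). No treated animal overlapped with vehicle in either study. Plau (urokinase) rose by 0.79 with ANIT (SE 0.20) and by 1.47 with MDA (SE 0.13). Thus the activators rose while their substrate Plg did not pass the test.

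Of 10 measured complement receptors and membrane regulators, 4 rose with MDA, where 4.90% of all genes were called higher. C5ar1, the receptor of C5a, rose by 0.99 (SE 0.15, limma adjusted p = 0.00431), Cd93 by 1.03, Itgax by 0.85 and Itgb2 by 0.63. With ANIT 0 of the 10 were called. Colec11, a lectin that can start the lectin pathway, fell by 1.48 with MDA (SE 0.16, limma adjusted p = 0.00115), and the ficolins Fcnb and Fcna rose by 0.79 and 0.59. F2r, the thrombin receptor, rose by 1.31 with MDA (SE 0.13) and its response differed from that to ANIT (log2 difference -1.16, SE 0.19, limma adjusted p = 0.0117).

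Of 13 measured genes of interleukin 6 and interleukin 1 signalling, 4 rose with ANIT and 3 with MDA, where 3.84% and 4.90% of all genes were called higher. Stat3, which transmits the interleukin 6 signal, read 11.54, 11.46 and 11.55 in corn oil and 12.19, 12.28 and 12.30 with ANIT, a rise of 0.74 (SE 0.07, limma adjusted p = 0.0015). Cebpd, a transcription factor of the acute phase, rose by 0.71 with ANIT (SE 0.14) and by 0.91 with MDA (SE 0.10). Il6 itself differed by 0.08 with ANIT and 0.20 with MDA. Its probe set lay at percentile 5.85 to 7.09 of all probe sets in the vehicle animals, so a change of Il6 could be missed. In the vitamin K cycle, Ggcx, the carboxylase that matures the clotting proteases, rose by 0.70 with ANIT (SE 0.14, limma adjusted p = 0.0185) and differed by -0.12 with MDA. Nqo1, a quinone reductase and NRF2 target, rose by 0.82 with ANIT, by 1.02 with MDA and by 1.60 with APAP (SE 0.09, limma adjusted p = 0.00105), its APAP animals reading 13.39, 13.52 and 13.27 against 11.89, 11.83 and 11.66 in corn oil.

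Other cell types also moved. Of 12 measured stellate cell, fibroblast and matrix markers 4 rose and 1 fell with ANIT and 6 rose and 2 fell with MDA, and of 8 ductular markers 1 and 3 rose. Of all genes 3.84% were called higher and 3.38% lower with ANIT, and 4.90% and 4.23% with MDA. In a list of 8, a single call is little to go on. Itgb3, 1 of 5 platelet and megakaryocyte markers, fell by 0.88 with MDA, and the endothelial markers Kdr and Stab1 fell by 0.73 and 0.75 with ANIT. Of 14 hepatocyte markers 0 were called with ANIT, where their mean dropped by array as given above, so a change could be missed. With MDA Hpx, an acute-phase protein, rose by 0.70 while Rbp4 and Hnf4a fell by 0.84 and 0.65. Hnf4a encodes a factor that drives many hepatocyte genes, and the part of hepatocyte number or state in the lower values of C8g, F12, Proc, Pros1 and Apoh was not tested. The mean log2 value of the 14 hepatocyte markers was 14.556 to 14.655 with MDA and 14.709 to 14.787 in ethanol, without overlap. Of the 14, 10 were lower and 2 higher than ethanol without overlap. Alb, which defines hepatocytes, differed by -0.02 (SE 0.08) with MDA. It stood at the very top of the signals in the vehicle animals, so a change of Alb could be missed.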

How the data were processed

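Livers of 23 rats were measured on an Affymetrix rat genome array. The authors deposited log2 values that they had made by robust multichip averaging (RMA) in Array Studio, and no further normalization was applied. The 31099 probe sets included 57 controls, which were left out. Probe sets were named from the platform annotation and gene names from RefSeq. Per gene, the probe set with the highest mean among those naming it alone was used. The number of arrays limits the precision.

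Treated rats were set against the vehicle rats of the same in-life study in limma 3.58.1 (R 4.3.3), with the groups compared in the fit, empirical Bayes moderation and Benjamini-Hochberg adjustment over 31042 probe sets. Calls needed an adjusted p under 0.05 and a fold over 1.5. Two-sided p-values test a difference of group means against the spread between animals, moderated over all probe sets. Differences between effects were tested as contrasts over 4 groups. The test was checked on simulated data.

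The genes, lists and motifs were chosen with earlier results of these data known. All listed genes were accounted for and every called gene was named. Others were named where they had the largest difference of their role or an adjusted p under 0.05, and from the other lists the called genes of largest change. C1r, Plg, Alb, the resident macrophage markers and similar examples were named beside these for context. Alternatives covered normalization, centring, dim probe sets, the choice of probe set, the samples fitted, moderation, the methods' t-test (unadjusted p under 0.01), the fold threshold and each animal left out. The titles of the 3 corn oil 5 ml/kg samples end in the same animal number, and their leading numbers were taken as the animals. Carbon tetrachloride samples and sequencing data are not analysed here.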

Additional observations from a re-analysis of the deposited data

Results flagged for a closer look

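The response of Cfd, which encodes complement factor D, differed between the bile duct toxicants by a test of the difference itself. The ANIT effect minus the MDA effect was -1.25 (SE 0.18, limma adjusted p = 0.00805). The log2 change was 1.04 with MDA, where 3 of 3 animals lay above all ethanol animals, and -0.21 with ANIT, where 3 of 3 lay below all corn oil animals. The difference was between -1.46 and -1.13 in every alternative run, and it passed the test in all of them. The corn oil animals of the ANIT study started from a mean of 10.41 and the ethanol animals from 9.86. The parts of these starting levels and of macrophage transcripts in the difference were not tested.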

How the results depend on the processing

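No paired analysis was possible because treated and vehicle rats were separate individuals, and replicate numbers were given in accession order. With no fold threshold 4 genes were higher and 6 lower with ANIT, and 8 higher and 8 lower with MDA. Quantile normalization called 2 higher with ANIT and 0 lower with MDA, and with MDA it also called C1s and C5 higher. The methods' t-test called 0 lower with ANIT and 0 lower with MDA at its own threshold, and after adjustment 0 lower with ANIT and 0 higher or lower with MDA. Leaving out 1 animal gave 0 to 1 higher and 0 to 1 lower with ANIT, 5 to 6 higher and 2 to 3 lower with MDA, and 1 to 2 lower in the ANIT minus MDA effect. Of these, C4bpa was called higher with ANIT without ANIT replicate 1 (0.62), and C8g lost its ANIT call without corn oil replicate 2 or 3, where F12 was called without the former (-0.59). The steady MDA counts hid swaps of genes. F12 was called lower without MDA replicate 1 or 3, Masp1 lower without ethanol replicate 1 and C1s higher without MDA replicate 2. Apoh was lost without any single ethanol animal and without MDA replicate 1 or 3. Without the 3 arrays of narrower top range, an alternative chosen after seeing the data, 4 were higher and 3 lower with ANIT. With APAP and DCLF 0 genes were called in every alternative. Of the MDA calls, Apoh was lost in 9 of 15 alternatives, C8g and Pros1 under quantile normalization and the t-test, C1qc under the t-test with and without adjustment, and C1qa, C1qb, C9 and Cfd under the t-test after adjustment. No result changed sign past a threshold. The causes of these changes were not tested. Groups of 3, the water group of 2 and the array's upper range limit what could be detected, above all for C3, Apoh, fibrinogen and Alb.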
